A study of Mus musculus with 4 samples.

Results

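The circadian clock genes described here are 10 genes of the transcription loop that keeps daily time in most mouse cells: Arntl (also named Bmal1), Clock, Per1, Per2, Per3, Cry1, Cry2, Nr1d1, Nr1d2 and Dbp. They were taken by symbol from the Ensembl identifiers of a table of 38924 genes, and all 10 were found and passed the filter on low counts. Their RNA was measured in regulatory T cells (Treg, the CD4+ Foxp3+ T cells that restrain immune responses) sorted from mouse spleen, as 2 libraries of activated Treg (aTreg) and 2 libraries of resting Treg (rTreg). In the labels, both populations carry an identical surface marker gate, so the gate as printed does not tell them apart, and the groups here follow the titles. Whether the gate was misprinted for 1 population could not be settled from the sources used here. They describe the animals as independent, while strain, age, sex, any reporter allele and the hour of collection remain not given in the sources used here. Total RNA was converted by template switching with a low-input kit and amplified by PCR, so that counts are reads and not molecules.

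In the clock, the proteins of Arntl and Clock pair up and bind E-boxes, short DNA sites in or near the Per, Cry, Nr1d and Dbp genes, and switch these genes on. Per and Cry proteins return to the nucleus and block the pair, and the Nr1d proteins (REV-ERB receptors) compete with ROR receptors for sites that control Arntl. In tissues with a running clock, Arntl RNA therefore peaks at the opposite time of day from Nr1d1, Dbp and the Per genes. Clock genes are expressed in lymphocytes, where daily rhythms of cell trafficking have been described.

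The promoter sequences of 9 of the 10 members were matched by symbol in a RefSeq table (GRCm38.p6), all but Per2, as 13 windows that run from 250 bases before to 50 bases after an annotated start. The windows were searched on both strands for the E-box (CACGTG), the variant E'-box (CACGTT), the D-box bound by Dbp and its relatives (TTATGTAA or TTACGTAA) and the ROR element by its usual consensus; an E-box and an E'-box cannot sit on the same 6 bases. At least 1 of these was present for 6 of the 9 genes. The shares that follow are per window and per element, so they are not a background for this count per gene. Over all 32851 windows of the table, 7.15% held an E-box, 4.68% an E'-box, 0.938% the D-box TTATGTAA, 0.119% the D-box TTACGTAA and 0.384% a ROR element. The sequences below, 5′ to 3′ on the strand of the gene, are shown because Nr1d1 and Per3 had the largest fold changes of the 10 genes, while Per1, Cry1 and Arntl hold textbook elements of the loop and had smaller ones. Capitals mark the matched elements.
Nr1d1 (chr11:98775378-98775627, minus strand), E'-box: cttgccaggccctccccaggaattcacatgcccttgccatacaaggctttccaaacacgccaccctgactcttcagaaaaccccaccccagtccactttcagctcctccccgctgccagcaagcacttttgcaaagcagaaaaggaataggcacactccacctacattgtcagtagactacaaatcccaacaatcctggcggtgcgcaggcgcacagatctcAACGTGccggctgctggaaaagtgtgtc
Per3 (chr4:151044666-151044915, minus strand), 2 D-boxes: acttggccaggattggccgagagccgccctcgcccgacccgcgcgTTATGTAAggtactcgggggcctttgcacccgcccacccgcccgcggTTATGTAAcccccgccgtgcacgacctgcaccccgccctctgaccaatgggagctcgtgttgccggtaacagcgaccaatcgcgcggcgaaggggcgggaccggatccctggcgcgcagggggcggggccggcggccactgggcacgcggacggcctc
Per1 (chr11:69098756-69098815, plus strand), E-box: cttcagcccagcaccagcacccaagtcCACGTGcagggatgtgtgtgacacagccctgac
Cry1 (chr10:85185082-85185141, minus strand), E'-box and E-box: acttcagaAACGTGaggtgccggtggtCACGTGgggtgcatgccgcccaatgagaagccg
Arntl (chr7:113207528-113207556, plus strand), ROR element: ggaaggcagAAAGTAGGTCAgggacggag
Counted from the start, the Per3 D-boxes began at -205 and -158, the Nr1d1 E'-box at -28, the Per1 E-box at -166 and the Cry1 E-box at -60. The Arntl ROR element lay after the start, from 27 to 37, in 1 of its windows, and its other window held no match. Per1 likewise held its E-box in 1 window and no match in the other. Cry2 held an E'-box that began at -166, and no window of Clock, Nr1d2 or Dbp held a match. These are matches of letters and not measured binding sites.

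The libraries are called activated A, activated B, resting A and resting B; the letters name columns of the count table, whose headings do not give replicate numbers that tell the columns of a group apart. They held 29332058, 20282062, 20699024 and 31851982 counts in this order, and the 10 genes were read from 66 to 1316 counts per library. All 6 T cell and Treg markers were detected in every library. Of the sort markers, Cd44 was at 329 and 335 CPM (counts scaled to a common library size) in activated A and B, against 145 and 213 CPM in resting A and B. Markers of other spleen cells were also read. The 5 plasmacytoid dendritic cell markers summed to 567 and 202 CPM in the activated libraries A and B, against 89.3 and 93.6 CPM in the resting libraries A and B, with 4 of the 5 higher in both activated libraries. The 5 conventional dendritic cell markers summed to 78.5 and 28.2 CPM against 10.9 and 7.48 CPM, all 5 higher in both activated libraries. Here Zbtb46 made up most of each resting sum, with 7.05 (A) and 5.55 CPM (B), against 9.19 (A) and 7.55 CPM (B) in activated Treg. In resting B, 1 marker of each dendritic list was at 0 counts. The 6 red pulp macrophage markers summed to 331 and 22.1 CPM in the activated libraries A and B and to 408 and 9.04 CPM in the resting libraries A and B, so that they split the libraries within each group. In such bulk samples fewer cells of a type and less RNA per cell cannot be told apart.

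Within the loop, Nr1d1 and Per3 had the largest differences between activated and resting Treg, with fold changes of 2.48 and 1.97, while the other 8 genes lay between 0.698 and 1.68. No member passed edgeR's quasi-likelihood test adjusted over all 14235 genes tested, where 0% of all genes were called in either direction; the smallest adjusted p of the 10 was 0.363. At an unadjusted p under 0.05, 2 members, Nr1d1 and Per3, were higher in activated Treg and 0 were lower, where 6.3% of all genes were higher and 2.61% lower. DESeq2 called 1 member, Nr1d1, higher (adjusted p = 0.0431) and 0 lower, where it called 2.28% of all genes higher and 0.829% lower. In 4 members, Arntl, Per2, Per3 and Nr1d1, both activated libraries were above both resting ones, which held for 19.8% of all genes, and in 3, Cry1, Cry2 and Dbp, both were below, which held for 17.4%. The fold change was above 1 in 7 of the 10, against 49.1% of all genes, and the median log2 fold change of the 10 was 0.28, against -0.0072 over all genes tested.

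**Figure D1:**
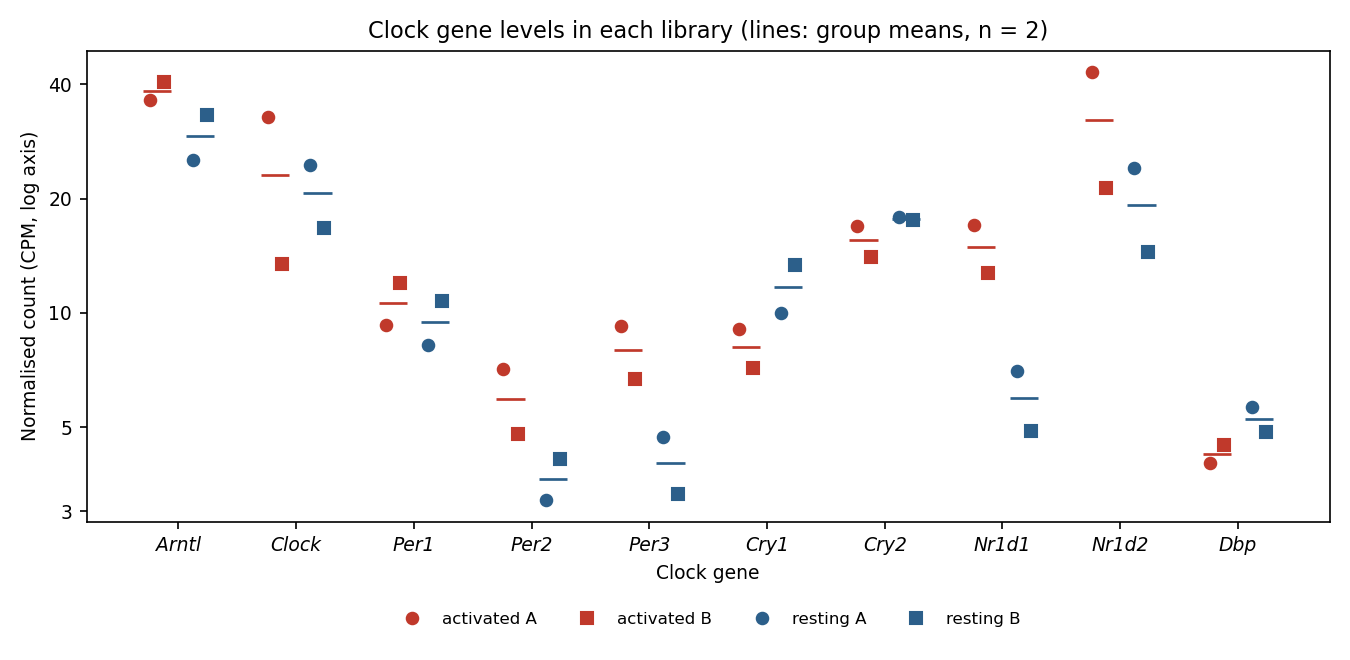
Normalised counts (CPM, log axis) of the 10 clock genes in each library, with activated Treg in red left of resting Treg in blue, circles for the A and squares for the B libraries, and lines at the means of 2 libraries. For Nr1d1 the activated libraries lie at 17.0 and 12.7 CPM, above both resting ones, whereas for Clock and Nr1d2 the circles lie above the squares in both groups and the groups overlap.

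Nr1d1 encodes REV-ERB alpha, a nuclear receptor that represses Arntl and other genes with ROR elements, and lies at chr11:98767932-98775333 on the minus strand (mm10, GENCODE M21). It was read at 17.0 CPM in activated A and 12.7 CPM in activated B, against 7.05 CPM in resting A and 4.90 CPM in resting B, from 520, 258, 145 and 150 counts. The groups did not overlap: the lower activated library was above the higher resting one. The mean was 14.9 ± 3.03 CPM in activated and 5.97 ± 1.52 CPM in resting Treg (SD, n = 2 each). This gave a log2 fold change of 1.31 ± 0.34 (SE), with a 95% interval from 0.44 to 2.18. Its unadjusted p was 0.0117 and its edgeR adjusted p 0.363, while the DESeq2 adjusted p was 0.0431. With 1 library left out in turn, the log2 fold change lay between 1.06 and 1.58. On the authors' regularized log2 scale, Nr1d1 was at 8.57 and 8.23 in activated replicates 1 and 2, against 7.52 and 7.10 in resting replicates 1 and 2. Of its annotated exon bases, 263, or 8.55%, also belong to Thra, a thyroid hormone receptor gene on the other strand, and the strand setting of the counting was not given in the sources used here. Thra itself was at 4.84 and 3.16 CPM in the activated libraries A and B, against 5.20 and 4.37 CPM in the resting libraries A and B, a log2 fold change of -0.25 ± 0.40. Most markers of plasmacytoid and conventional dendritic cells were likewise higher in both activated libraries, and their part in the Nr1d1 difference was not tested.

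Nr1d2 encodes REV-ERB beta, the close relative of REV-ERB alpha, and lies at chr14:18204054-18239127. It was read at 43.1 CPM in activated A and 21.4 CPM in activated B, against 24.0 CPM in resting A and 14.4 CPM in resting B. The groups overlapped, because resting A lay above activated B, and in each group the A library was the higher one, by 2.01-fold in activated and 1.66-fold in resting Treg. The log2 fold change was 0.75 ± 0.43 (adjusted p = 0.787 by edgeR and by DESeq2), and it was 0.16 without activated A, 1.16 without activated B, 0.42 without resting B and 1.14 without resting A. The difference between the activated libraries, at 1.01 on the log2 scale, was larger than the difference of the group means, at 0.70.

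The Period genes encode the inhibitors that, with the Cry proteins, close the loop. Per3 lies at chr4:151003652-151044665. It was at 9.23 and 6.71 CPM in the activated libraries A and B, against 4.72 and 3.33 CPM in the resting libraries A and B, and the groups did not overlap. The mean was 7.97 ± 1.78 CPM in activated and 4.02 ± 0.98 CPM in resting Treg (SD, n = 2 each). Its log2 fold change was 0.98 ± 0.38, with a 95% interval from 0.012 to 1.94 and an unadjusted p of 0.0481. It did not pass over all genes by edgeR (adjusted p = 0.549) or by DESeq2 (adjusted p = 0.437). With 1 library left out in turn, the log2 fold change stayed between 0.74 and 1.23. As with Nr1d1, both A libraries were above their B library, by 1.37-fold in activated and 1.41-fold in resting Treg, which is less than the difference between the groups.

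Per2 lies at chr1:91415982-91459324 and was at 7.10 and 4.79 CPM in the activated libraries A and B, against 3.21 and 4.11 CPM in the resting libraries A and B. The groups did not overlap, but activated B and resting B were close, and resting A rests on 66 counts. Its log2 fold change was 0.69 ± 0.39 (edgeR adjusted p = 0.778). Per1, which glucocorticoid hormones also induce quickly, lies at chr11:69095217-69109960 and was at 9.29 and 12.0 CPM in the activated libraries A and B, against 8.22 and 10.7 CPM in the resting libraries A and B. Here the groups overlapped and the B library was the higher one in each. The log2 fold change was 0.16 ± 0.31, with a 95% interval from -0.64 to 0.96, and leaving out resting A turned it to -0.022 and leaving out activated B to -0.035. The 3 Period genes therefore had fold changes of 1.12, 1.61 and 1.97 for Per1, Per2 and Per3, none of which passed over all genes. Whether these fold changes differ from each other was not tested.

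Arntl and Clock encode the activator pair. Arntl lies at chr7:113207465-113314126 and was at 36.4 and 40.6 CPM in the activated libraries A and B, against 25.2 and 33.3 CPM in the resting libraries A and B. Both activated libraries lay above both resting ones, although activated A and resting B were close. The mean was 38.5 ± 2.99 CPM in activated and 29.3 ± 5.68 CPM in resting Treg (SD, n = 2 each), a log2 fold change of 0.39 ± 0.22 with a 95% interval from -0.18 to 0.97 (edgeR adjusted p = 0.778). Clock lies at chr5:76209868-76304792 and was at 32.8 and 13.5 CPM in the activated libraries A and B, against 24.6 and 16.8 CPM in the resting libraries A and B. The activated libraries held both the highest and the lowest value, a 2.43-fold difference within the group. For Clock the log2 fold change was 0.17 ± 0.47, with an interval from -1.04 to 1.38, so that these libraries leave a difference of more than 2-fold either way within the interval. It turned to -0.60 without activated A and to -0.090 without resting B.

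Cry1 and Cry2 encode the cryptochromes, the repressors that bind the activator pair. Cry1 lies at chr10:85131700-85185064 and was at 9.10 and 7.16 CPM in the activated libraries A and B, against 9.97 and 13.4 CPM in the resting libraries A and B. Both activated libraries were below both resting ones, although activated A and resting A were close. The log2 fold change was -0.52 ± 0.32 (edgeR adjusted p = 0.81), the most negative of the 10, with a 95% interval from -1.33 to 0.29. Cry2, at chr2:92403646-92434043, was at 17.0 and 14.1 CPM in the activated libraries A and B, against 17.8 and 17.6 CPM in the resting libraries A and B. Its log2 fold change was -0.19 ± 0.24, with an interval from -0.80 to 0.42. In Cry2 the difference between the activated libraries, 0.27 on the log2 scale, was larger than the difference of the group means, -0.20.

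Dbp encodes a D-box binding factor that passes the rhythm on to output genes, and in many tissues it is among the genes with the strongest daily swing. It lies at chr7:45705088-45710203 and was at 4.02 and 4.49 CPM in the activated libraries A and B, against 5.64 and 4.86 CPM in the resting libraries A and B, from 91 to 149 counts. Both activated libraries were below both resting ones by a small step, with a log2 fold change of -0.30 ± 0.34 (edgeR adjusted p = 0.954) and a 95% interval from -1.17 to 0.58. Of its exon bases 539, or 18%, are shared with Sphk2, a sphingosine kinase gene on the other strand that was at 38.5 and 43.9 CPM in the activated libraries A and B, against 41.6 and 46.2 CPM in the resting libraries A and B. Without strand, reads from the shared bases of such a pair cannot be told apart. The estimate for Dbp thus lay on the other side of 0 from those of Nr1d1 and Per3, which like Dbp are targets of the activator pair. The Dbp interval includes 0, and whether these fold changes differ from each other was not tested.

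**Figure D2:**
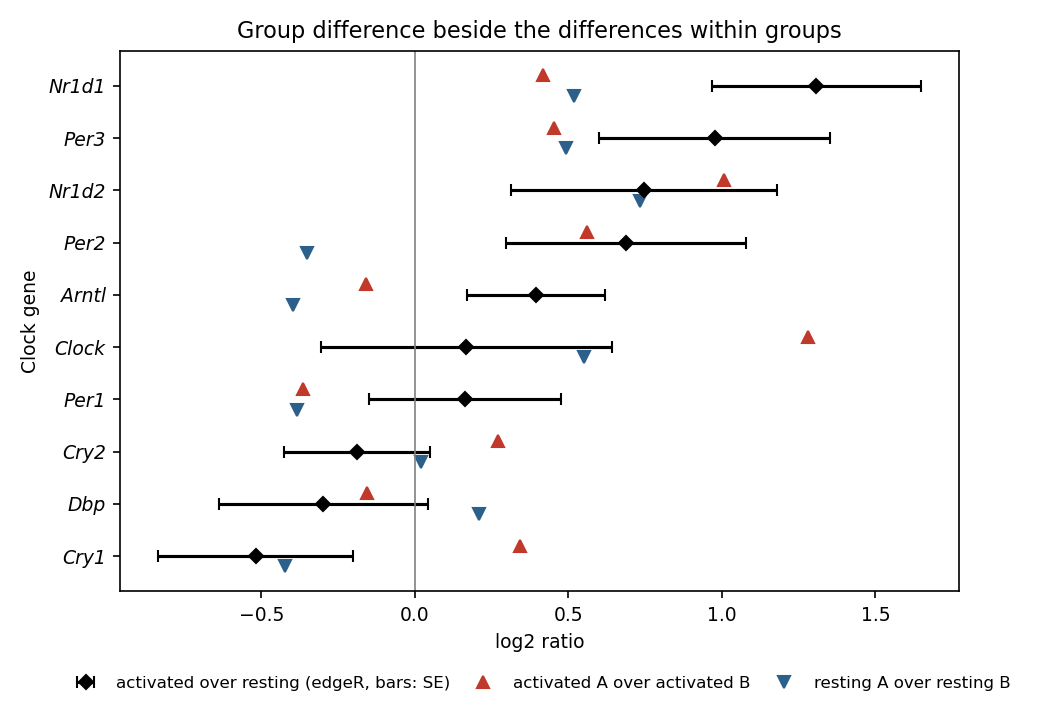
The log2 fold change of activated over resting Treg for each clock gene (black, with SE bars) beside the log2 ratio of the A to the B library within activated (red) and within resting Treg (blue). For Nr1d1 and Per3 both within-group ratios lie below the group difference, whereas for Clock the ratio of activated A to B is 1.28 and the group difference 0.17.

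Set against the spread within groups, the members were of 2 kinds. In 4 of the 10, Clock, Per1, Cry2 and Nr1d2, the libraries of at least 1 group differed by more than the group means did, a relation that held for 73.6% of all genes tested. In the other 6 the group means differed by more than either pair of libraries, by 1.31 on the log2 scale in Nr1d1 against 0.42 between the activated and 0.52 between the resting libraries. The margin was narrow in Arntl, with a difference of group means of 0.41 against 0.16 between the activated and 0.40 between the resting libraries. Activated A was above activated B in 7 of the 10 and resting A above resting B in 6. In 5, Clock, Per3, Cry2, Nr1d1 and Nr1d2, the A library was above the B library in both groups. For Cry2 in resting Treg that step was only 1.01-fold. The shares of all genes with these orders were not computed, so the counts of 7, 6 and 5 do not set the members apart. The summed red pulp macrophage markers had the same order in both groups, and the part of those cells in these values was not tested.

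Levels of different genes were compared per kilobase of annotated exon, since longer genes collect more reads. Averaged over all 4 libraries, Nr1d2 at 4.75 and Arntl at 4.5 CPM per kilobase were the upper pair, followed by Nr1d1 at 3.39, Cry1 at 2.96 and Cry2 at 2.63. Per1 at 1.79, Clock at 1.6 and Dbp at 1.59 formed a lower group, and Per2 at 0.82 and Per3 at 0.624 were the lowest. The order at the top turned between the groups. In activated Treg, Nr1d2 was at 5.96, Arntl at 5.12 and Nr1d1 at 4.83 CPM per kilobase, above Cry2 at 2.46 and Cry1 at 2.43. In resting Treg, Arntl was at 3.89, Nr1d2 at 3.55 and Cry1 at 3.50 CPM per kilobase, followed by Cry2 at 2.80 and Nr1d1 at 1.94. In both groups the libraries of Nr1d2 lay on either side of those of Arntl, so that neither gene ranked above the other beyond the spread. The lengths cover every annotated isoform, so a gene with long unused exons is placed too low.

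Because Arntl and its Nr1d, Per and Dbp targets are known to peak at opposite times of day, their ratio was read within each library, where it hardly depends on library size. The log2 ratio of Arntl to Nr1d1 was 1.09 and 1.67 in activated A and B, against 1.83 and 2.74 in resting A and B. The groups did not overlap, and the mean was lower by 0.91 in activated Treg (activated minus resting, -0.91). The log2 ratio of Arntl to Dbp went the other way, at 3.15 in activated A and 3.15 in activated B, against 2.15 in resting A and 2.75 in resting B, a difference of 0.70. An exact two-sided permutation test of 2 libraries against 2 gave p = 0.333 for the ratio to Dbp, the smallest p that this design allows, and the same p for 4 more of the 9 ratios read (to Per1, Cry1, Cry2 and Nr1d1), so that no adjusted p could pass. Ratios to Per2, at 2.34 and 3.06 in activated against 2.94 and 2.99 in resting Treg, and to Per3, at 1.97 and 2.58 against 2.40 and 3.29, overlapped between the groups. The ratio to Per1 differed by only 0.24, at 1.96 and 1.75 in activated and 1.61 and 1.62 in resting Treg, without overlap. All 9 ratios share Arntl, which was itself higher in both activated libraries. How often ratios of other gene pairs lack overlap was not computed. The ratios to Nr1d1 and to Dbp thus differed between the groups in opposite directions.

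**Figure D3:**
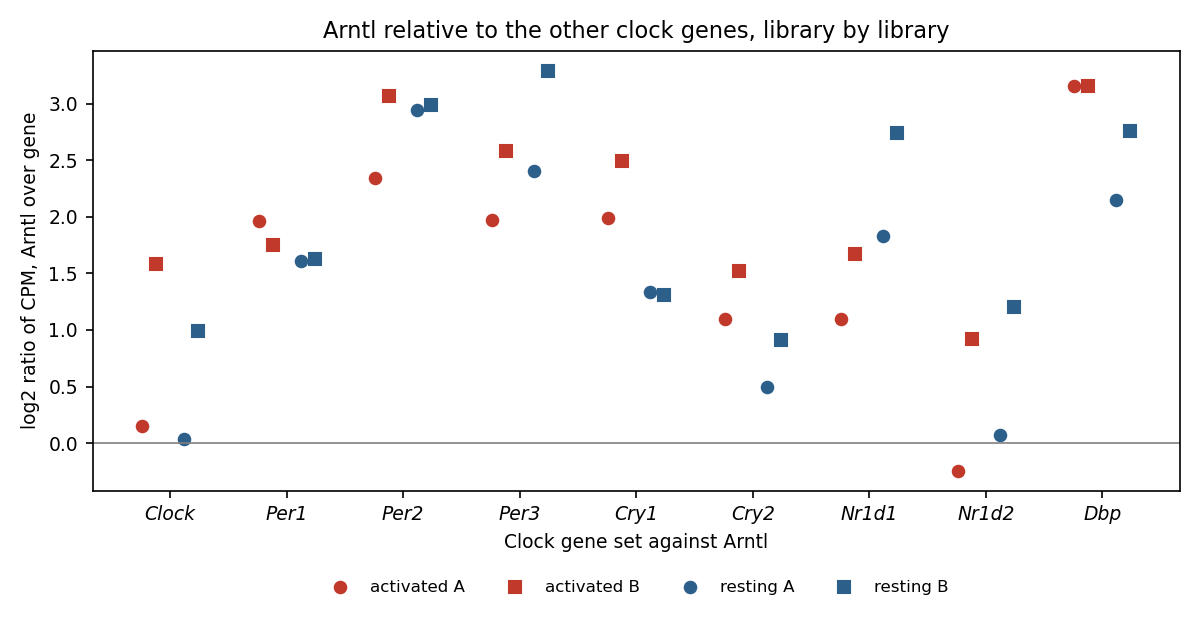
The log2 ratio of Arntl to each other clock gene within each library, activated Treg in red left of resting Treg in blue, circles for the A and squares for the B libraries. For Nr1d1 both activated libraries lie below both resting ones, and for Dbp, Per1, Cry1 and Cry2 both lie above.

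Of 25 further genes of the clock pathway, 22 passed the filter on low counts; Arntl2, Npas2 and Rorb did not, with at most 23 counts in any library. No gene of the 22 passed with edgeR or DESeq2 adjusted over all genes. With an unadjusted p under 0.05, 1 was higher in activated Treg, Rora, and 1 was lower, Timeless, where 6.3% of all genes were higher and 2.61% lower, so that these counts do not stand out from the background. Both activated libraries were above both resting ones in 8 of the 22 and below in 5, against 19.8% and 17.4% of all genes. In 12 of the 22 the libraries of at least 1 group differed by more than the group means did, against 73.6% of all genes. The median log2 fold change of the 22 was 0.19, against -0.0072 over all genes tested.

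Rora encodes a ROR receptor, which competes with REV-ERB at the ROR elements of genes such as Arntl. It was at 84.4 and 85.9 CPM in the activated libraries A and B, against 28.1 and 59.1 CPM in the resting libraries A and B, a log2 fold change of 0.96 ± 0.37 (edgeR adjusted p = 0.547). The activated libraries were alike and above the resting ones, and resting A was below resting B. The log2 difference of resting A minus resting B, at -1.07, was slightly larger in size than that of the group means, at 1.06. Without resting A the log2 fold change was 0.52. Unlike Nr1d1, whose A libraries were the higher ones, Rora was lower in the A library of each group. In activated Treg that log2 difference, A minus B, was only -0.025.

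Among the D-box factors, Tef, the relative of Dbp with the highest level, was at 27.6 and 26.7 CPM in the activated libraries A and B, against 21.6 and 14.4 CPM in the resting libraries A and B. Its log2 fold change was 0.59 ± 0.27 (edgeR adjusted p = 0.666), and the groups did not overlap. The remaining relative of Dbp, Hlf, and the D-box repressor Nfil3 were both named after their values were seen. They had log2 fold changes of 1.71 ± 0.79 and 1.40 ± 0.74, from at most 95 and 212 counts per library. For Hlf the groups did not overlap, but resting A and B held only 24 and 8 counts. For Nfil3 the groups overlapped, with activated A at 3.11 CPM below resting B at 3.53 CPM. Leaving out activated B lowered Nfil3 to 0.30, and Hlf ran from 1.02 without resting B to 2.92 without resting A. All 3 estimates lay above 0 and that of Dbp below, but each of their 95% intervals includes 0. Whether they differ from Dbp was not tested.

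Among repressors of the activator pair, Bhlhe40, which is also induced by T cell receptor signals, was at 105.5 and 265 CPM in the activated libraries A and B, against 28.1 and 87.0 CPM in the resting libraries A and B. The B library was the higher one in each group, with a ratio of A to B of 0.398 in activated and 0.323 in resting Treg. The log2 fold change of 1.68 ± 0.68 did not pass (edgeR adjusted p = 0.58; DESeq2 adjusted p = 0.102), and it ran from 0.86 without activated B to 2.70 without resting B. Its relative Bhlhe41 had the highest log2 fold change of the 22 by edgeR over all 4 libraries, at 1.85 ± 0.84, from 8 to 48 counts per library. That value rests on activated B, with 48 counts: without this library it was 0.53, and on the regularized log2 scale it was 0.65, where Bhlhe40 was higher at 1.61. Timeless, a partner of the replication fork in mammals whose part in the mouse clock is less settled, had the lowest. It was at 34.3 and 49.1 CPM in the activated libraries A and B, against 64.1 and 75.1 CPM in the resting libraries A and B, a log2 fold change of -0.74 ± 0.24 (edgeR adjusted p = 0.467). In the same libraries the cycling markers Mki67 and Top2a summed to 171 and 305 CPM in the activated libraries A and B and to 106 and 468 CPM in the resting libraries A and B, and their part in the Timeless difference was not tested.

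None of the enzymes that set the lifetime of Per and Cry proteins had an unadjusted p under 0.05. Gsk3b, a kinase with the highest level of its group, was at 262 and 212 CPM in the activated libraries A and B, against 299 and 276 CPM in the resting libraries A and B, and Fbxw11, a ubiquitin ligase subunit that recognises Per proteins, was at 52.4 and 57.9 CPM against 47.3 and 50.9 CPM. The log2 fold changes of the 4 kinases ran from -0.37 to 0.08 and those of the 5 ubiquitin ligase and deubiquitinase genes from -0.47 to 0.80, the highest for Fbxl21, which was read at 18 to 52 counts per library. Among the output genes Nampt, the enzyme of NAD salvage whose gene is driven by the activator pair, was at 95.0 and 70.5 CPM in the activated libraries A and B, against 75.1 and 86.6 CPM in the resting libraries A and B, and the groups overlapped.

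**Figure D4:**
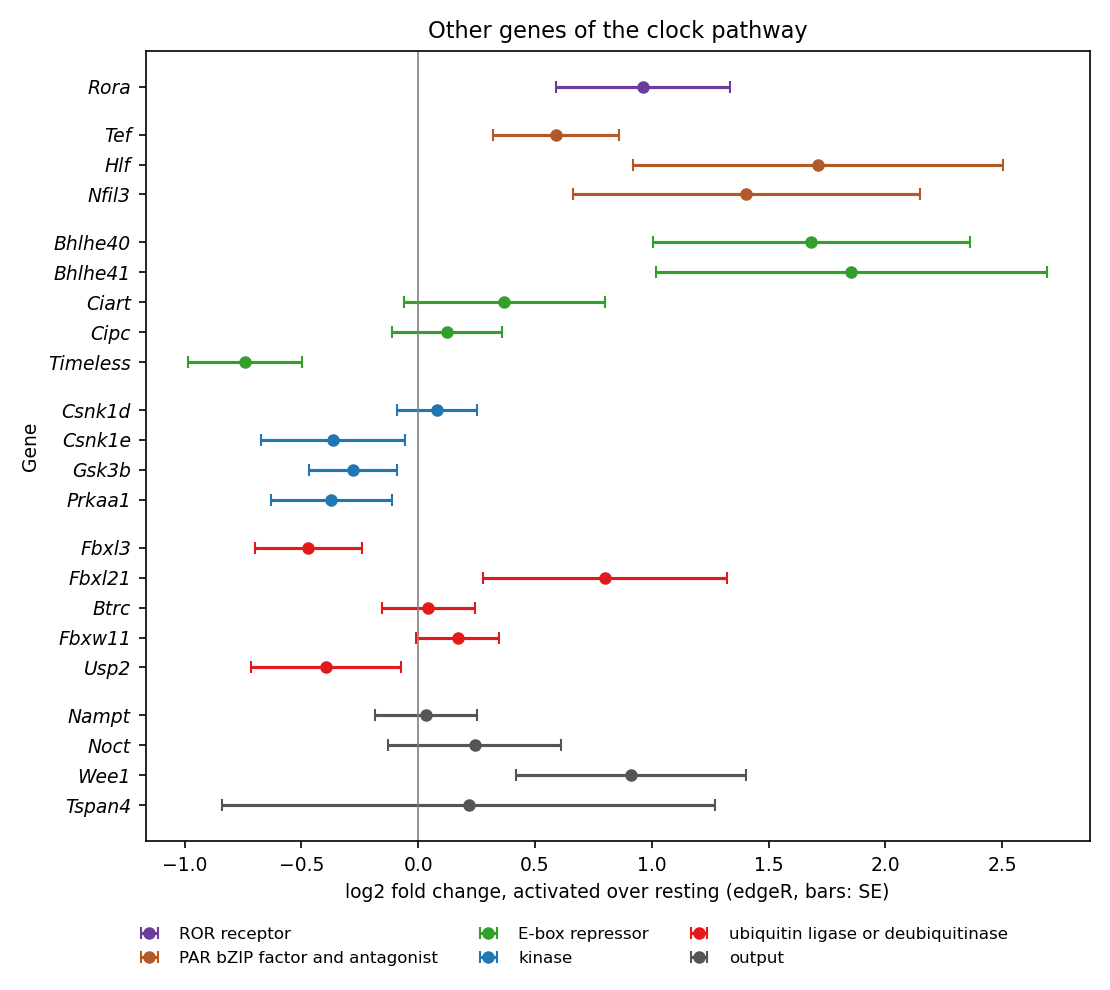
The log2 fold change of activated over resting Treg with its SE for the 22 further clock pathway genes tested, grouped by role. Rora, Tef, Hlf, Nfil3, Bhlhe40 and Bhlhe41 lie to the right of 0, Timeless lies farthest to the left at -0.74, and none passed over all genes.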

How the data were processed

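The deposited count table holds raw counts per Ensembl gene, and another, also from the authors, gives their regularized log2 values. Per the submitters' processing notes, STAR 2.4.0c, featureCounts, DESeq2 and the mm10 build were used, without roles or order. Annotation release and strand setting were not given in the sources used here. Headings of the count table repeat 1 replicate number per group, so its columns were assigned to groups only. Symbols and exon lengths came from GENCODE M21, which matched 37607 of 38924 identifiers, and promoters from RefSeq.

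Genes kept by filterByExpr (minimum count 10, minimum total 15) were tested on group alone with TMM scaling and the quasi-likelihood F-test of edgeR 4.0.16 under R 4.3.3, with Benjamini-Hochberg adjustment over all 14235 genes and a threshold of 0.05. SE was derived from the fold change and the F statistic and is approximate, and 95% intervals use it. Fold changes use a prior count of 2. DESeq2 1.42.0, limma 3.58.1 (voom, and on the regularized log2 values), RLE scaling, no filter and leaving out each library were the alternatives. The procedure was also run on simulated counts with less spread between libraries than these data have. That run therefore does not show its error rate or power here. The 10 genes, the list of 25 further genes and the tests were chosen with earlier results of these data known. All 10 are described; of the 25, those with an unadjusted p under 0.05, the highest and lowest fold change and the highest mean per role are named. Some listed genes are not reported here. Nothing but the labels' wording speaks for separate animals, so p-values measure the spread between these libraries.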

Additional observations from a re-analysis of the deposited data

How the results depend on the processing

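Direction was kept in 8 of the 10 clock genes and in 17 of the 22 further genes under every setting run; all reversals came from leaving out 1 library. With 1 library left out, the log2 fold change of Clock ran from -0.60 to 0.66, of Per1 from -0.035 to 0.35, of Cipc from -0.15 to 0.35, of Csnk1d from -0.011 to 0.17, of Btrc from -0.096 to 0.17, of Nampt from -0.19 to 0.23 and of Tspan4 from -0.72 to 2.39. Each such fit leaves 1 library in a group, which is assumed to vary like the other group; the cause was not tested.

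Calls depended on the tool. Over all genes edgeR called 0, with 1268 at an unadjusted p under 0.05; DESeq2 called 442, edgeR without the filter 852 (3.24% of its genes), and edgeR with 1 library left out 0 to 370, while limma-voom, RLE scaling and limma on the regularized log2 values called 0. Among the 10 clock genes DESeq2 called 1, Nr1d1, whose adjusted p ran from 0.00684 to 0.635 over all settings. Among the 22 further genes edgeR without the filter called 2, Rora and Bhlhe40, and edgeR with 1 library left out called 0 to 1, Bhlhe40 without resting B. With the replicate number as a replicate block, limma on the regularized log2 values called 1552 genes (10.9%), 2 of the 10 clock genes (Nr1d1, adjusted p = 0.00684, and Nr1d2, adjusted p = 0.0312) and 5 of the 22 further ones (Rora, Hlf, Nfil3, Bhlhe40 and Timeless). Deviations from the group means of same-numbered libraries correlated with r = 0.652 across genes, but the labels do not say that a number marks a shared animal or day, and 2 pairs cannot show it.

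The median log2 fold change of the 10 clock genes ran from 0.25 to 0.49 with 1 library left out, the highest without activated B. The difference in the log2 ratio of Arntl to Dbp stayed between 0.40 and 1.01. The lowest clock gene count was 66, for Per2 in resting A, so low counts add to the error there. With 2 libraries per group, a missed threshold does not show that levels were alike.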
